A study of Mus musculus with 6 samples.

Results

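Loss of one subunit of the mouse THO complex was set directly against loss of another: 2 arrays of J1 embryonic stem cells given an siRNA against Thoc5 were compared with 2 arrays of the same line given an siRNA against Thoc2. These are 4 of the 6 arrays in the series, chosen by their titles. The remaining 2 arrays, of J1 cells given a non-targeting siRNA (NT), had no weight in the comparison and are quoted as reference levels only. J1 is a mouse embryonic stem cell line. All groups were grown in ESGRO medium, were moved to M10 medium for the transfection, and gave total RNA 96 hours later, so the medium, the transfection and the time are shared by the controls. No genetic deletion was involved: each knockdown is a partial and transient loss in an unmodified line, and the siRNA sequences are not given in the sources used here. The labels do not say whether the 2 arrays of a group came from separate cultures, so the spread between them may be technical. Expression was measured on 1-colour Agilent arrays of 60-base probes. A level is the log2 signal of a probe minus the 75th percentile of its array, and a difference is the Thoc5 siRNA mean minus the Thoc2 siRNA mean on that scale, given with the standard error (SE) of the limma fit and n = 2 arrays per group.

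THO is the core of the TREX (transcription and export) complex, which is loaded onto nascent mRNA and passes it to the export receptor formed by NXF1 and NXT1. THOC2 is the scaffold that joins THO to the helicase DDX39B, whereas THOC5 and THOC7 form a coiled-coil part of the complex, and THOC5 also contacts the export receptor. In embryonic stem cells the complex is known for the nuclear export of the transcripts of self-renewal factors. An array of total RNA reports steady-state amounts and does not separate nuclear from cytoplasmic RNA.

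The labelled cell type was checked against its markers. Of 36 pluripotency genes 33 were measured, all of them well above background on all 4 knockdown arrays, and Zfp42, Klf4, Pou5f1 and Sox2 lay above the 75th percentile on every array. The pluripotency genes Prdm14, Fgf4 and L1td1 had no probe named for them.

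The 4 arrays differed in quality along with the groups. Thoc5 siRNA replicate 1 was the dimmest array, with a 75th percentile of 306 signal units against 716 to 905 on the other arrays, and 56.7% of its spots were well above background against 68.3% to 79.7%. Thoc2 siRNA replicate 1 had the largest share of spots above background and 880 outlier spots against 63 to 155, lay alone on its slide and was the single array scanned on a second day. No slide held both knockdowns, so slide and knockdown cannot be told apart except through the NT arrays that shared a slide with replicate 2 of each. Across all genes the Thoc2 siRNA replicates correlated at 0.969 and the Thoc5 siRNA replicates at 0.978, against 0.964 to 0.975 between the knockdowns. In these bulk samples fewer cells of a type and less RNA per cell cannot be told apart.

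The probes that report the targeted transcripts are shown because they check the labels. The Thoc5 probe lies at chr11:4870150-4870210 on the plus strand and the brightest Thoc2 probe at chrX:36919451-36919510 on the minus strand, both in the mm7 build of the array design. Their place in an exon or UTR was not determined here.
Thoc5 probe: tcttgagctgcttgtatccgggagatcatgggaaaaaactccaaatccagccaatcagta
Thoc2 probe: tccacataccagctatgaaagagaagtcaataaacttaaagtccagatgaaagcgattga

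Each targeted transcript stood lowest on the arrays of its own siRNA and near its NT level on the arrays of the other, which is the order the labels give. Thoc5 stood at 1.84 and 1.30 on the Thoc2 siRNA arrays and at 0.35 and -0.00 on the Thoc5 siRNA arrays, and its NT levels were 1.31 and 1.57. The groups did not overlap, and the difference was -1.40 ± 0.27, which leaves 38.0% of the Thoc2 siRNA level (limma adjusted p = 0.415). Thoc2 stood at 0.67 and 0.33 on the Thoc2 siRNA arrays and at 1.08 and 1.71 on the Thoc5 siRNA arrays, with NT levels of 1.32 and 1.43. Here too the groups did not overlap, with a difference of 0.90 ± 0.27 (limma adjusted p = 0.496). By the probe shown above, Thoc2 mRNA on the Thoc2 siRNA arrays was 53.7% of that on the Thoc5 siRNA arrays, and a further pair of Thoc2 probes, measured on all 4 arrays, gave 44.6% and 56.2%. Whether the knockdowns differed in depth was not tested, and protein was not measured. Neither target passed the adjusted threshold of 0.05 in this design.

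The other core subunits lay close together in both knockdowns. The difference was 0.31 ± 0.19 for Thoc1, -0.10 ± 0.17 for Thoc3 and -0.11 ± 0.17 for Thoc6. Thoc7, the coiled-coil partner of THOC5, was at 2.41 and 2.29 with Thoc2 siRNA and at 2.06 and 1.97 with Thoc5 siRNA, a difference of -0.34 ± 0.16. A second Thoc7 probe read -1.10 on Thoc2 siRNA replicate 1 and between 2.75 and 3.55 on every other array, so the probes of this gene disagreed most on that array. On Thoc2 siRNA replicate 2 the second probe read 2.81, between its Thoc5 siRNA levels, whereas the first probe read above both of its own. The lower Thoc7 level with Thoc5 siRNA therefore depended on the probe. The NT levels of Thoc1, 0.13 and 0.17, lay below all 4 knockdown levels, which ran from 0.43 to 1.00, and those of Thoc6, 3.67 and 3.73, lay below its knockdown levels of 3.86 to 4.18. Further Thoc1 probes, measured on all 4 arrays, gave differences of -0.19 and 0.02, so the direction for Thoc1 depended on the probe. Of 223 list members with a further probe well above background on all 4 arrays, 78 had one with a difference of the opposite sign.

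**Figure D1:**
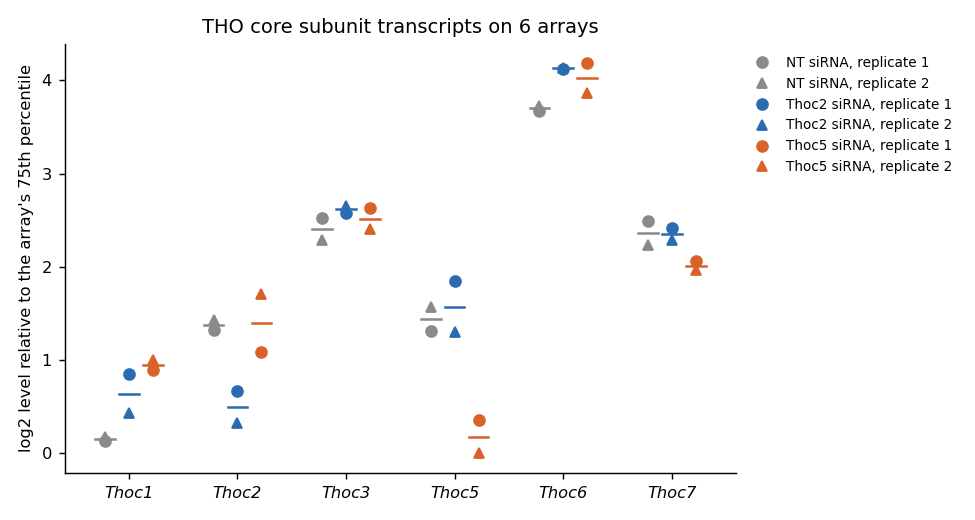
Levels of the 6 THO core transcripts on each of the 6 arrays (log2 relative to the 75th percentile of the array); circles are replicate 1, triangles replicate 2, bars group means. Thoc5 is lowest on the 2 Thoc5 siRNA arrays (0.35 and -0.00) and Thoc2 on the 2 Thoc2 siRNA arrays (0.67 and 0.33), while the other 4 subunits lie close together in the knockdowns.

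Among the 19 genes of TREX and its export partners 9 lay above and 10 below the median of all genes, and their median lay -0.00 from it. Of these, 1 reached an unadjusted p under 0.05. That gene was Nxt2, a paralogue of the export cofactor NXT1, at -2.05 and -2.43 with Thoc2 siRNA and at -1.47 and -1.36 with Thoc5 siRNA, a difference of 0.82 ± 0.25. The adaptor Poldip3 differed by 0.73 ± 0.45, with its lowest level on Thoc2 siRNA replicate 1, and the helicase Ddx39b by -0.32. The zinc finger component Zc3h11a differed by -0.29 ± 0.16.

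Over the 18678 genes measured, limma called 0 (0%) at an adjusted p under 0.05, with 0.332 as the lowest adjusted p. Before adjustment 1722 genes (9.22%) had a p under 0.05, of which 488 (2.61%) were higher and 1234 (6.61%) lower with Thoc5 siRNA. On simulated data the same fit called 22.9%, 58.8% and 79.3% of genes changed by 1, 2 and 4 on the log2 scale. The simulated noise was independent, used each gene's own residual spread and held no slide, scan or dim-array effect. These shares therefore do not give the power of the real arrays. Without Thoc5 siRNA replicate 1 the unadjusted count was 985. The genes described below are therefore a ranking, with no call.

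The surplus of lower genes depended on the scaling and on dim probes. The median difference over all genes was -0.10, and it was -0.01 with quantile normalization and 0.25 when arrays were centred on their median. Quantile normalization left 822 higher (4.4%) and 735 lower genes (3.94%) at an unadjusted p under 0.05, and median centring 1072 and 549, so higher genes made up 28.3% of the total in the main setting, 52.8% with quantile normalization and 66.1% with median centring. In the lowest of 10 equal bins by level the median difference was -1.22, and 1.02% of that bin was well above background on all 4 arrays. In the upper 6 bins it lay between -0.04 and 0.01. Genes not well above background on either Thoc5 siRNA array numbered 617, against 31 for the Thoc2 siRNA arrays. Without the dim Thoc5 siRNA replicate 1, 305 genes were higher and 680 lower at an unadjusted p under 0.05, so higher genes made up 31.0%. Without Thoc2 siRNA replicate 2 they made up 44.1%, with 767 higher and 973 lower. List medians below are given relative to the median of all genes, and single genes as fitted.

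**Figure D2:**
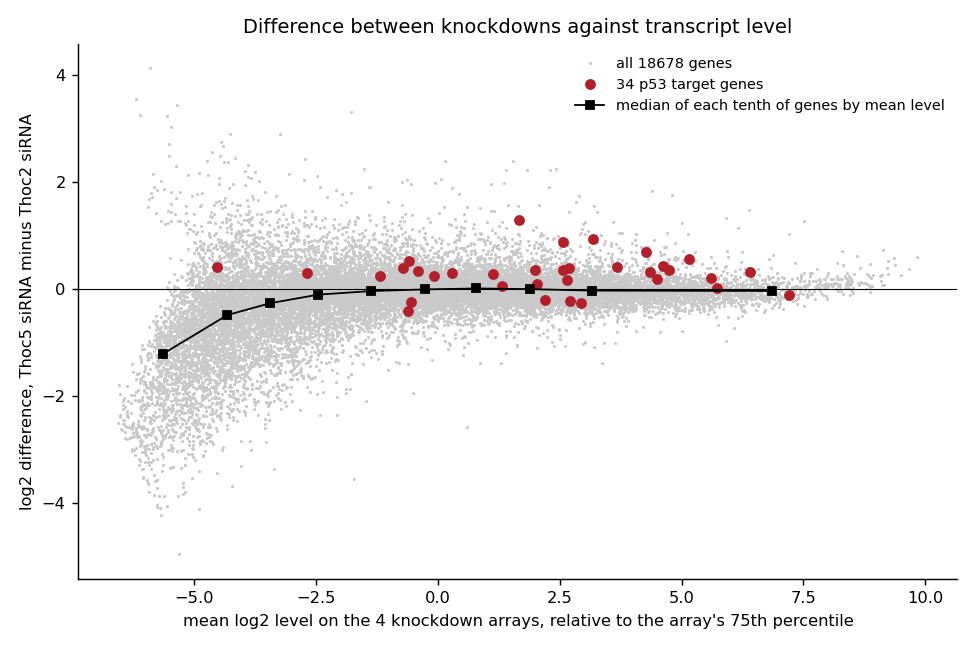
Difference between the knockdowns (log2, Thoc5 siRNA minus Thoc2 siRNA) against mean level on the 4 knockdown arrays for 18678 genes (grey); black squares are the medians of 10 equal bins, drawn at the middle of each bin's range, and red points the 34 p53 target genes. The bin medians go from -1.22 for the dimmest genes to about 0 for the upper 6 bins, and 28 of the 34 p53 targets lie above 0.

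A log2 difference of at least 1 with no overlap of the groups was found for 253 higher and 1665 lower genes. Among those well above background on all 4 arrays the numbers were closer, 197 higher and 311 lower. The NT mean lay between the means of the knockdowns in 118 of the 197 and in 212 of the 311, so for these genes the knockdowns stood on opposite sides of the control mean. The NT arrays are shared by both distances, which makes this a description of positions and no separate evidence.

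Among the genes higher with Thoc5 siRNA, Anxa8, Cd109 and Wnt9a had Thoc2 siRNA levels close to NT. Anxa8, which encodes a phospholipid-binding annexin (probe at chr14:31533094-31533153), stood at 0.23 and 0.54 with Thoc2 siRNA and at 2.45 and 2.26 with Thoc5 siRNA. Its NT levels of 0.23 and 0.37 matched the former group, and the difference was 1.97 ± 0.18, or 3.92-fold. Cd109, a glycolipid-anchored protein that binds TGF-beta, was at -3.01 and -3.24 against -1.42 on both Thoc5 siRNA arrays, a difference of 1.71 ± 0.20. Wnt9a, a Wnt ligand, was at -3.11 and -2.91 against -1.75 and -1.69, a difference of 1.29 ± 0.15. In each of these genes the 2 Thoc5 siRNA arrays lay above all 4 others.

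Adamts3, a secreted metalloprotease that processes procollagen, stood at -4.20 and -4.18 with Thoc2 siRNA and at -2.25 and -2.67 with Thoc5 siRNA, a difference of 1.73 ± 0.21. Its NT levels of -5.04 and -5.30 were lower still, so both knockdowns were above the control and the Thoc5 knockdown by more. Scn3b, a beta subunit of sodium channels, had the same order, with NT at -0.82 and -0.87, Thoc2 siRNA at -0.12 and -0.08 and Thoc5 siRNA at 0.87 and 0.93, a difference of 1.00 ± 0.13, while further Scn3b probes gave 0.22 and 1.34. Fgd6, an exchange factor for small GTPases, differed by 1.19 ± 0.15, with NT between the knockdowns. Phldb2, which anchors microtubules at the cell cortex, differed by 1.02 ± 0.14 and Scrn1 by 1.05 ± 0.15, but their second probes, measured on all 4 arrays, gave -0.29 and 0.38. Fam47e differed by 2.32 ± 0.22 from a low level, -4.88 and -5.21 against -2.60 and -2.85. The ranking of 15 also held 3 transcripts without a gene symbol, of which 2 were not well above background on either Thoc2 siRNA array and were at least 2.90-fold and at least 5.36-fold higher with Thoc5 siRNA. For such a bound, each dim array was assigned either the probe's level there or the lowest level that still counted as well above background, whichever was greater. Over the 31 genes not well above background on either Thoc2 siRNA array the median bound was 2.42-fold.

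Taf7l, which encodes a germ cell paralogue of the general transcription factor subunit TAF7, completed the top of this ranking. It stood at -1.42 and -1.87 with Thoc2 siRNA and at 0.33 and 0.44 with Thoc5 siRNA, and NT was at -1.61 and -1.95. The difference was 2.03 ± 0.23, or 4.08-fold, and a second Taf7l probe gave 1.96. The germ cell list as a whole had 16 of its 19 measured genes above the median of all genes, a median 0.36 above it, and 3 genes higher at an unadjusted p under 0.05, against 2.61% of all genes. The others were Dazl, an RNA-binding protein of germ cells, at 0.92 ± 0.20, and Mov10l1, a helicase of the piRNA pathway, at 0.80 ± 0.16. The list median ranged from 0.20 to 0.57 over 19 alternative settings and was 0.21 without Thoc2 siRNA replicate 2.

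Zscan4c differed by more than any other higher gene measured on all 4 arrays whose groups did not overlap. It marks the rare 2-cell-like state that embryonic stem cells enter and leave, and its probe is shown because the Zscan4 genes are near-identical copies that can share a probe's signal.
Zscan4c probe, chr7:9713271-9713330 (mm7), plus strand: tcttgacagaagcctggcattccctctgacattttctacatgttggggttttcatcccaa
The NT levels were 2.26 and 1.35, the Thoc2 siRNA levels -3.42 and -3.46, and the Thoc5 siRNA levels 0.61 and -0.88. The Thoc2 siRNA arrays agreed closely and lay below all others, the Thoc5 siRNA arrays lay in between, and the difference was 3.31 ± 0.59, or 9.89-fold. A second Zscan4c probe differed by 1.58. Usp17la, a deubiquitinase gene of the same state, followed the same order, with NT at -0.35 and -1.16, Thoc2 siRNA at -4.18 and -4.04 and Thoc5 siRNA at -1.34 and -2.61, a difference of 2.14 ± 0.52. The other 2-cell-like genes were mixed. Tcstv3 differed by -0.99 ± 0.88 and Tcstv1 by -0.50, but a second Tcstv1 probe gave 0.78 and a second Tcstv3 probe, well above background on 1 of the 4 arrays, 2.03 with NT highest and Thoc2 siRNA lowest. Zfp352 and Sp110 differed by 0.06 and 0.05. Only 6 of the 17 genes of the list were measured, and their median lay 0.15 above that of all genes.

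**Figure D3:**
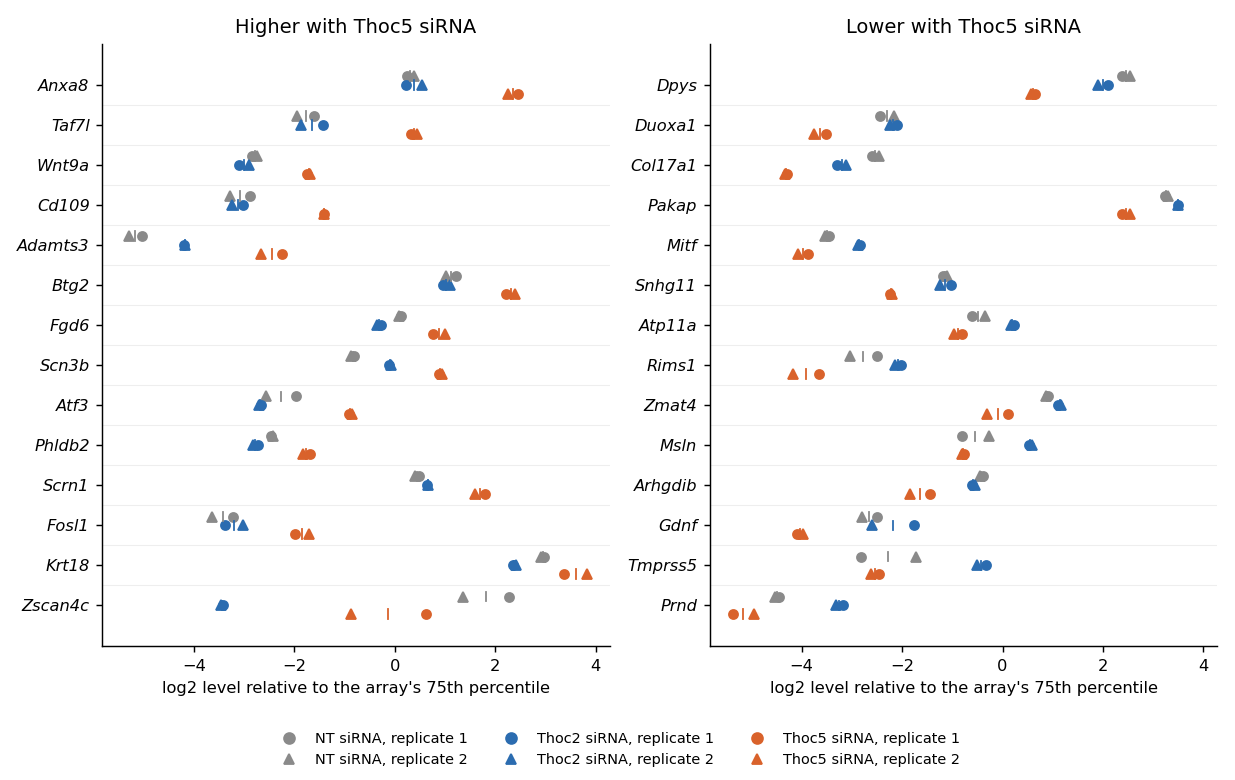
Levels of 14 genes higher (left) and 14 genes lower (right) with Thoc5 siRNA on each of the 6 arrays (log2 relative to the 75th percentile of the array); circles are replicate 1, triangles replicate 2, bars group means. The Thoc5 siRNA arrays lie apart from the Thoc2 siRNA arrays in every gene drawn, Anxa8 by 1.97 and Dpys by -1.39, and in Zscan4c the Thoc2 siRNA arrays are the lowest.

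Most p53 target genes were higher with Thoc5 siRNA than with Thoc2 siRNA. p53 is the transcription factor that responds to DNA damage and other stress, and its targets arrest the cell cycle, repair DNA or promote cell death. All 34 genes of the list were measured, 33 of them well above background on all 4 arrays. Of these 0 passed limma's adjusted threshold. At an unadjusted p under 0.05, 6 were higher and 1 lower with Thoc5 siRNA, against 2.61% and 6.61% of all genes, or 3.04% and 4.22% of the 15185 genes well above background on all 4 arrays. The groups did not overlap in 19 genes that were higher and 6 that were lower, against 15.3% and 30.2% of all genes. Above 0 lay 28 of the 34, compared with 38% of all genes. The shares of 15.3%, 30.2% and 38% include dim genes, and the median difference in the dimmest bin by level was -1.22. The list is brighter, with a median level of 2.57, and in the bin that holds this level the median difference was -0.03. These shares are therefore not matched to the list by level, and they overstate the contrast. The list median was 0.31, which is 0.40 above the median of all genes, and it stayed between 0.31 and 0.42 above it over 19 alternative settings, including each array left out and both replicates 1 left out together. Per array, the list median relative to all genes was -0.23 and -0.14 with NT, -0.18 on both Thoc2 siRNA arrays, and 0.18 and 0.15 with Thoc5 siRNA. The Thoc2 siRNA arrays thus lay within the NT range, and the Thoc5 siRNA arrays above all others. Higher values of this list against NT on these same Thoc5 siRNA arrays were known when the list was fixed, so its direction here is not independent evidence.

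The members with the largest differences were regulators of proliferation and of p53 itself. Btg2, an antiproliferative cofactor (probe at chr1:133965302-133965361), stood at 0.96 and 1.09 with Thoc2 siRNA, at 2.22 and 2.40 with Thoc5 siRNA and at 1.21 and 1.01 with NT. The difference was 1.29 ± 0.16, and further Btg2 probes gave 1.11 and 0.88. Mdm2, the ubiquitin ligase that limits p53, stood at 2.77 and 2.67 against 3.53 and 3.79, with NT at 2.40 and 2.53, a difference of 0.94 ± 0.17. Plk2, a polo-like kinase, stood at 2.32 and 1.97 against 2.91 and 3.11, with NT at 1.42 and 1.55. In Mdm2 and Plk2 the Thoc2 siRNA arrays lay between NT and Thoc5 siRNA.

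Perp, a membrane protein of desmosomes and of cell death, differed by 0.69 ± 0.19 and Trp53inp1, a p53-induced nuclear protein, by 0.56 ± 0.13. Cdkn1a, the gene of the cyclin kinase inhibitor p21, stood at -0.82 and -0.86 with Thoc2 siRNA and at -0.23 and -0.42 with Thoc5 siRNA, with NT at -0.33 and -0.47. Its difference of 0.51 ± 0.15 therefore came with Thoc2 siRNA arrays below NT and Thoc5 siRNA arrays at the NT level. The cell death genes of the list differed by less: Pmaip1 by 0.36, Bbc3 by 0.31 and Bax by 0.19. Ddb2, a DNA repair factor, was lower with Thoc5 siRNA, at -0.77 and -0.87 against -0.43 and -0.36, a difference of -0.42 ± 0.15. Gadd45a, Gdf15, Zmat3 and Tigar lay between -0.27 and -0.20.

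Promoters of the list were searched for the 10-base p53 half-site, on both strands, in windows from 250 bases before to 50 after each RefSeq start site (GRCm38.p6). A half-site was present at 12 of the 26 listed genes with a promoter in the table and at 9.55% of the 27025 genes in it. A pair of half-sites at most 13 bases apart was found at Cdkn1a and at 0.074% of all genes. The median difference was 0.34 for the 12 genes with a half-site and 0.23 for the 14 without, so both parts of the list lay above 0. A gene counted if the window of any of its start sites held the sequence. The promoters of Mdm2 and Cdkn1a are shown as the members with a half-site and the largest differences. For Cdkn1a this is the first start site, and the window of start site 2, chr17:29093519-29093818, held 0 half-sites. The Btg2 and Plk2 promoters held no half-site in this window and 1 cAMP response element each, TGACGTCA, a sequence present at 2.03% of genes. Several sequences were searched for besides the half-site, and this element was found at 2 of the 26 listed genes. Capitals mark the half-sites.
Mdm2 promoter, chr10:117710709-117711008, minus strand: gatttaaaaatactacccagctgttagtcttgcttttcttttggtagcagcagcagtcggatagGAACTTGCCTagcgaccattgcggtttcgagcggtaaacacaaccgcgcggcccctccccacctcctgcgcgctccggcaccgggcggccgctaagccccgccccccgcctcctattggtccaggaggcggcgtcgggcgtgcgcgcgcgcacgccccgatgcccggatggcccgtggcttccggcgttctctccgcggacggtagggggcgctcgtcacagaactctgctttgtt
Cdkn1a promoter, chr17:29090729-29091028, plus strand: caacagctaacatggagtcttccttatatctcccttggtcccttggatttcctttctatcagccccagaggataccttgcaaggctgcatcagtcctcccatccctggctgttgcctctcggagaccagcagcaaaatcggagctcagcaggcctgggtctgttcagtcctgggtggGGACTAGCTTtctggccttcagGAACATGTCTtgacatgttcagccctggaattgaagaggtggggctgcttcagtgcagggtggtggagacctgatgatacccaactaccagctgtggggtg

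**Figure D4:**
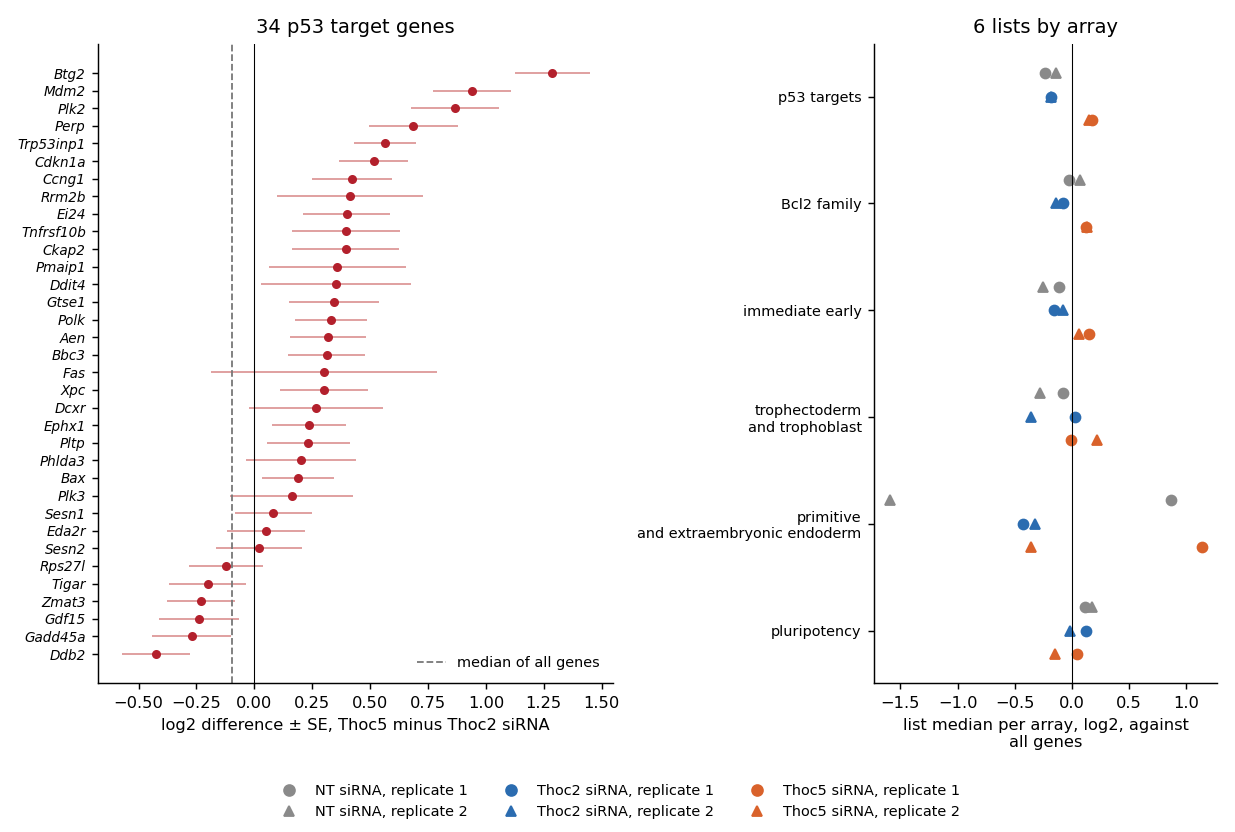
Left, log2 difference (Thoc5 siRNA minus Thoc2 siRNA, with SE) of 34 p53 target genes, from Btg2 at 1.29 to Ddb2 at -0.42, beside the median of all genes (dashed, -0.10). Right, the median of 6 gene lists on each array (circles replicate 1, triangles replicate 2), taken over the members' levels minus their means on the 4 knockdown arrays, and relative to all genes: the Thoc5 siRNA arrays lie above the others for p53 targets (0.18 and 0.15), and the endoderm list spreads most within the NT and Thoc5 siRNA groups.

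Genes of the Bcl2 family, which set the threshold for cell death, had a median 0.29 above that of all genes over 14 measured genes, and between 0.14 and 0.31 above it over the alternative settings. The survival factor Bcl2l2 differed by 0.40 ± 0.15 and the survival factor Mcl1 by 0.28 ± 0.15, while the death-promoting Bmf was lower, at -0.39 ± 0.15. The lowest member was the survival factor Bcl2 itself, at -0.50 ± 0.62. Pmaip1, Bbc3 and Bax belong to this list as well as to the p53 targets.

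Stress and immediate early transcription factors were split within their lists. Atf3, a factor induced by many stresses (probe at chr1:190724174-190724233), stood at -2.67 and -2.70 with Thoc2 siRNA and at -0.91 and -0.86 with Thoc5 siRNA, with NT at -1.97 and -2.57. The difference was 1.80 ± 0.24, or 3.47-fold. Fosl1, a partner of Jun in the AP-1 factor, stood at -3.38 and -3.01 against -1.98 and -1.72, a difference of 1.35 ± 0.24, and Jun itself differed by 0.87. On the other side, Fosl2 differed by -1.53 and Egr1 by -0.60. Of 30 immediate early genes measured, 6 were higher and 2 lower at an unadjusted p under 0.05, against 2.61% and 6.61% of all genes. The list median lay 0.18 above that of all genes, with a range of 0.11 to 0.34 over the settings. This list shares Btg2 with the p53 targets, and Atf3 and Ppp1r15a with the integrated stress response list. It also shares Ccn1 and Ccn2 with the Hippo and YAP targets, so these lists are not separate. Fos differed by 0.02 and Junb by -0.03, so the difference was in members of the family rather than in all of it. Among negative regulators of ERK signalling, the phosphatase Dusp4 differed by 0.86 ± 0.26 and Phlda1 by 0.52 ± 0.16, and the receptor Epha4, of the same list, by -0.42 ± 0.14. The other Epha4 probe, also well above background on all 4 arrays, gave 0.47, so its direction depended on the probe.

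Targets of the integrated stress response, the pathway that acts through ATF4, lay on both sides, 18 of 35 above the median of all genes. Of the 35, 1 was higher and 3 lower at an unadjusted p under 0.05, shares near the 2.61% and 6.61% of all genes, and the median was 0.02 from that of all genes. Cth, an enzyme of cysteine synthesis, stood at 2.99 and 2.89 with Thoc2 siRNA and at 2.09 and 2.04 with Thoc5 siRNA, with NT at 3.44 and 3.22, a difference of -0.87 ± 0.15. Ddit3, the stress factor CHOP, stood at -0.71 and -0.83 with Thoc2 siRNA and at 0.27 and 0.14 with Thoc5 siRNA, a difference of 0.97 ± 0.47, with the NT arrays above and below all of these. The mitochondrial folate enzyme Aldh1l2 differed by -0.71 ± 0.23, but a second probe gave 0.35, and relative to all genes the value turned to 0.47 with no filter on dim probes and to 0.042 in the authors' deposited table. The transcript of ATF4, the factor that drives these genes, differed by 0.00 ± 0.25, and its targets Trib3 and Chac1 by 0.05 ± 0.15 and -0.50 ± 0.44. The unfolded protein response list had a median 0.20 above that of all genes with no gene at an unadjusted p under 0.05. This value was 0.11 without Thoc2 siRNA replicate 1 and 0.01 with slide fixed through NT. Its Sdf2l1, Pdia4 and Xbp1 differed by 0.79 ± 0.40, 0.37 ± 0.20 and 0.41 ± 0.24. Sdf2l1 and Xbp1 were lowest on Thoc2 siRNA replicate 1, at 0.28 and 0.37, against 1.34 and 0.99 on replicate 2. In the heat shock list the chaperone Hsp90aa1 was at 0.60 ± 0.19, Hspa4l at 0.50 ± 0.23 and Hspa1a at -0.41 ± 0.21, with further probes at 0.68, 0.71 and -0.53 for Hspa4l and at -0.31, -0.06 and 0.02 for Hspa1a. Of the oxidative stress genes, Nqo1 differed by 1.51 ± 0.89, with Thoc2 siRNA replicate 1 at -1.05 against 1.29 to 1.74 on the others and NT replicate 1 dropped as an outlier, Srxn1 by 0.20 ± 0.17 and Tkt by -0.17 ± 0.15, with a second Tkt probe at 0.20.

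Of 33 pluripotency transcripts 16 lay above and 17 below the median of all genes. The list median lay -0.09 from it, and between -0.21 and 0.05 over the settings. With the stricter filter, which takes out dim probes, it was -0.15. At an unadjusted p under 0.05, 3 were lower and 0 higher, against 6.61% and 2.61% of all genes. Among the 15185 genes well above background on all 4 arrays these shares were 4.22% and 3.04%. The groups did not overlap in 15 genes that were lower and 4 that were higher, against 30.2% and 15.3% of all genes. Tcl1, a cofactor of Akt, stood at 1.90 and 2.03 with Thoc2 siRNA and at 1.37 and 1.24 with Thoc5 siRNA, a difference of -0.66 ± 0.15. Nr5a2, a nuclear receptor that activates Pou5f1, differed by -0.53 ± 0.17, and Nr0b1, a nuclear receptor that binds Oct4 protein, by -0.48 ± 0.15. Nanog stood at 3.70 and 3.67 against 3.28 and 3.29, a difference of -0.40 ± 0.15, and Pou5f1 at 4.09 and 3.77 against 3.44 and 3.56, a difference of -0.43 ± 0.21. In both genes the groups did not overlap. Sox2 differed by 0.01 ± 0.18, Esrrb by 0.06 ± 0.17, Klf4 by -0.19 ± 0.16 and Zfp42 by -0.10 ± 0.23. Relative to all genes, Pou5f1 turned to 0.23 when slide was fitted through NT, which has no test.

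In the list of the later epiblast, Otx2 differed by -0.45 ± 0.17, Foxd3 by -0.47 ± 0.20, Sall2 by 0.29 ± 0.14 and Fgf5 by -0.57 ± 0.38, and the list median lay -0.06 from that of all genes.

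Trophectoderm markers lay on both sides. Krt18 and Krt8, the keratin pair of simple epithelia, were higher with Thoc5 siRNA: Krt18 stood at 2.35 and 2.40 against 3.37 and 3.82 and Krt8 at 1.46 and 1.74 against 2.84 and 2.47. Their differences were 1.22 ± 0.20 and 1.05 ± 0.22, and in both genes NT lay between the groups. The TEAD factor gene Tead4 differed by 0.76 ± 0.18, Hand1 by 0.84 and Krt19 by 0.63. The lineage factor Gata3 was lower, at -3.25 and -3.03 against -2.65 and -2.63, a difference of -0.50 ± 0.16 beside NT levels of -4.89 and -5.11. Cdx2 differed by -0.42 ± 0.29, and by -0.00 with quantile normalization. Of 17 genes measured 5 were higher and 2 lower at an unadjusted p under 0.05, against 2.61% and 6.61% of all genes, with a list median 0.27 above that of all genes. That median was -0.06 without Thoc2 siRNA replicate 2 and -0.02 without Thoc5 siRNA replicate 2, so it rested on these arrays. Elf5 and Tpbpa were not measured.

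Endoderm markers varied with single arrays. The summed level of the 19 genes measured, as multiples of the 75th percentile, was 42.6 and 18.9 with NT. It was 27.4 and 31.1 on the Thoc2 siRNA arrays and 55.6 and 27.1 on the Thoc5 siRNA arrays. The master factor Gata6 was at 0.78 and -2.35, -0.08 and -0.34, and 1.56 and -0.32 in the same order, a difference of 0.83 ± 1.22, with further Gata6 probes, above background on 3 of the 4 arrays, at 0.75 and -1.91. NT replicate 1 and Thoc5 siRNA replicate 1 were thus the high arrays. The list median was 0.61 above that of all genes with all arrays and -0.11 without Thoc5 siRNA replicate 1, and 0 genes had an unadjusted p under 0.05. Lamb1, a laminin of the endoderm basement membrane, differed by 0.55 ± 0.34, while Apoa1 and Hnf4a differed by -1.20 ± 0.74 and -1.45 ± 1.09. Afp and Ttr, which mark visceral endoderm, were not measured. The part of these cells in the other results was not tested.

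Mesoderm and neural markers were low and depended on the scaling. The primitive streak list lay -0.37 from the median of all genes and 0.02 from it with quantile normalization. Its Gsc and Fgf8, a homeobox factor and a growth factor of the streak, differed by -0.78 ± 0.16 and -0.61 ± 0.15, and Wnt3 by 0.68 ± 0.23. T, the streak factor Brachyury, differed by -0.77 ± 1.06, with levels of -5.33 and -2.51 against -5.34 and -4.04. In the neural list Pax2 and Map2 differed by -0.98 ± 0.37 and -0.73 ± 0.29, and Sox1 by -1.19 ± 0.80. Among retinoic acid and Hox genes, the homeobox factor Meis2 stood at 0.05 and 0.27 with Thoc2 siRNA and at -0.46 and -0.98 with Thoc5 siRNA, far above NT levels of -1.92 and -1.95. Its difference was -0.88 ± 0.23. Tshz1 differed by 0.75 ± 0.21, with a second probe at -0.49. Hoxa2, not well above background on either Thoc5 siRNA array, stood at least 2.28-fold higher in the other group. The median bound over all 617 genes of that kind was 2.06-fold.

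Fibroblast markers, which would mark feeder cells, had a summed level over 14 genes measured of 39.5 to 42.6 with NT, of 41.5 and 45.2 on the Thoc2 siRNA arrays and of 49.8 and 53.6 on the Thoc5 siRNA arrays. Vim, the intermediate filament of mesenchymal cells and a gene stem cells express too, differed by 0.45 ± 0.14. It stood at 4.43 and 4.60 with Thoc2 siRNA and at 4.95 and 4.98 with Thoc5 siRNA. The sums are weighted to bright genes such as Vim. By contrast, 10 of the 14 genes lay below the median of all genes. The list median lay -0.27 from it, and between -0.53 and 0.04 over the settings. The collagen Col3a1 and the proteoglycan Dcn were dim and lower with Thoc5 siRNA, by -1.68 ± 0.52 and -1.33 ± 0.51, and neither was well above background on Thoc5 siRNA replicate 1. The fibroblast genes Lum, Twist2 and Fap were not measured. Epcam, an epithelial adhesion molecule, differed by 0.36 ± 0.20 and Twist1 by -0.39 ± 0.23.

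Signalling targets gave few differences at an unadjusted p under 0.05. Of 21 Hippo and YAP targets measured 2 were higher and 0 lower, against 2.61% and 6.61% of all genes. The Nodal and BMP list and the Wnt list had 0. As a list, Hippo and YAP targets had 18 of 21 genes above the median of all genes. Their median lay 0.18 above it, and between 0.13 and 0.43 above it over the settings. Amotl1, an angiomotin that binds YAP, stood at -2.54 and -3.49 with Thoc2 siRNA and at -1.27 and -1.08 with Thoc5 siRNA, with NT at -4.07 and -4.21, a difference of 1.84 ± 0.35. Tissue factor, encoded by the YAP target F3, differed by 0.72 ± 0.25 and the Hippo scaffold Wwc1 by -0.39 ± 0.15. The classical YAP targets Ccn1 and Ccn2 differed by 0.73 ± 0.31 and 0.09 ± 0.38. For BMP and Nodal targets the inhibitor Smad6 differed by -0.78 ± 0.30, Skil by -0.39 ± 0.17 and Id4 by -0.42 ± 0.19. Second probes, measured on all 4 arrays, gave 0.38 for Skil and -0.02 for Id4. For Wnt targets Rnf43 differed by 0.60 ± 0.27 and Axin2 by -0.28 ± 0.17. Cd44, also not well above background on either Thoc5 siRNA array, stood at least 1.49-fold higher in the other group. That bound lay under the median of 2.06-fold for all 617 such genes.

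Antiviral genes lay on both sides, 11 of 22 above the median of all genes, and ran from Irf7 at -3.15 to Ifitm2 at 0.85. A further Ifitm2 probe gave 0.32. Tap1, a peptide transporter of antigen presentation, differed by 0.80 ± 0.22 and Bst2, a membrane restriction factor, by 0.55 ± 0.16, while the RNA sensor Oas1a stood at -2.34 and -1.82 with Thoc2 siRNA and at -3.33 and -3.30 with Thoc5 siRNA, a difference of -1.23 ± 0.35. The list of 22 genes had 2 higher and 5 lower at an unadjusted p under 0.05, against 2.61% and 6.61% of all genes, and a median -0.06 from that of all genes.

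Among genes of replication, mitosis and repair, few differed at an unadjusted p under 0.05. The replication list lay -0.01 from the median of all genes and the mitosis list 0.20 above it, with 0 genes of either at that threshold. Of the 21 mitosis genes 19 lay above the median of all genes, and the list median ran from -0.01 to 0.29 over the settings. In the replication list Pola1, the catalytic subunit of DNA polymerase alpha, differed by -0.36 ± 0.15 and Mcm10 by -0.37 ± 0.18. E2f1 differed by 2.39 ± 1.17, with Thoc2 siRNA replicate 1 at -2.79 and all other arrays at 0.68 to 1.44, and by 0.65 without that array, and a second E2f1 probe gave 0.63. Of the mitotic genes Mki67, the lowest of the list, differed by -0.43 ± 0.18, Bub1b by 0.27 ± 0.15 and Ttk by 0.41 ± 0.22. Among genes of recombination, Fanconi repair and R-loop removal, a process tied to THO because unexported RNA can anneal to its template, Brca2 stood at 3.06 and 3.17 with Thoc2 siRNA and at 2.64 and 2.50 with Thoc5 siRNA, a difference of -0.54 ± 0.15. Fanci differed by -0.48 ± 0.24. The median of the 20 genes of that list lay -0.06 from that of all genes.

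Imprinted genes included opposite values. The paternally expressed Igf2 and Nnat were higher with Thoc5 siRNA, by 0.56 ± 0.17 and 0.67 ± 0.23, and the maternally expressed noncoding RNA Meg3 was lower, by -0.71 ± 0.22. The lowest of the list was the paternally expressed Usp29, at -0.99 ± 0.81, so paternally expressed genes lay on both sides, and further Meg3 probes ran from -1.12 to -0.15. The median of the 20 measured was 0.02 from that of all genes. Glycolysis and hypoxia genes had a median 0.16 above that of all genes, and 20 of 23 lay above it. Eno1 differed by 0.81 ± 0.32, Egln3 by -0.53 ± 0.22 and Hk2 by -0.35 ± 0.16. Eno1 stood at 2.07 on Thoc2 siRNA replicate 1 and between 2.94 and 3.50 on every other array. Cholesterol synthesis lay 0.03 above all genes, with Fdft1 at 0.46 ± 0.20, Pmvk at 0.27 ± 0.13 and Acat2 at 0.37 ± 0.21. Reference genes had a median 0.15 above that of all genes, with Actb at 0.72 ± 0.30 and Gapdh at 0.29 ± 0.13. Rplp0 was at 0.73 ± 0.24 by its brightest probe and at 0.11 and 0.07 by others.

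**Figure D5:**
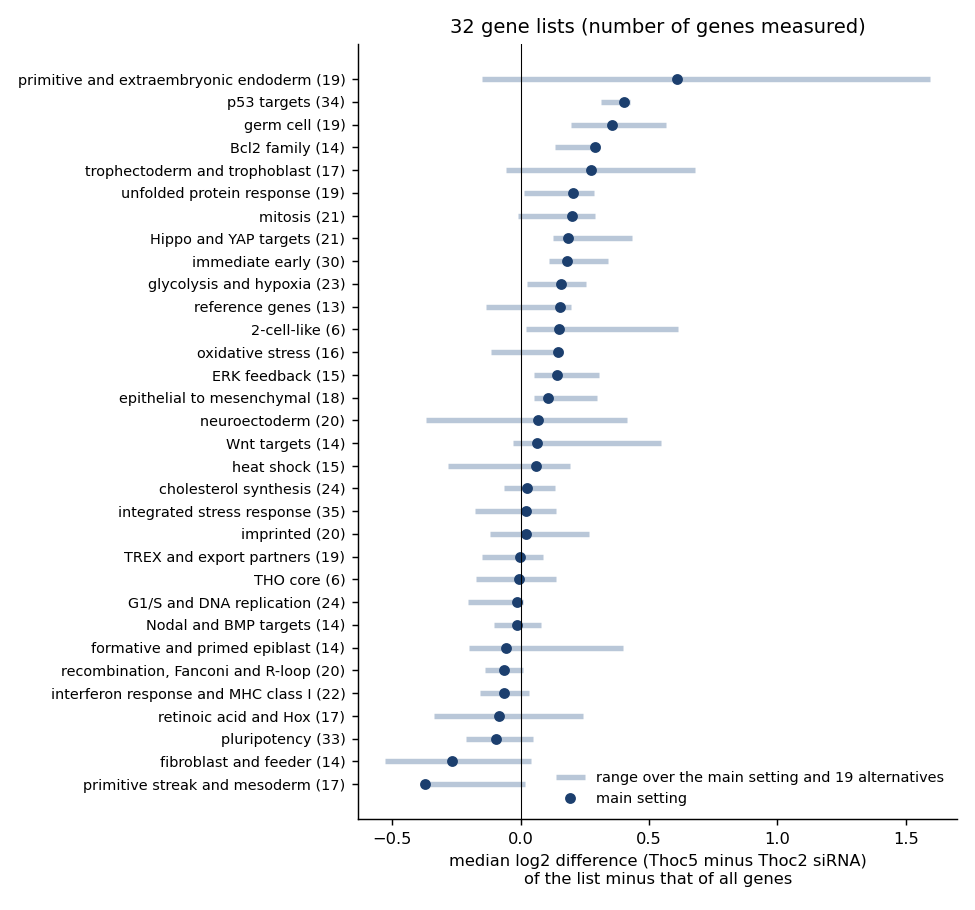
Median log2 difference (Thoc5 siRNA minus Thoc2 siRNA) of 32 gene lists relative to the median of all genes (points), with the lowest and highest value over the main and 19 alternative settings (bars) and the number of genes measured. The p53 target list keeps to 0.31 to 0.42, while the endoderm list, highest at 0.61, reaches -0.15.

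Genes lower with Thoc5 siRNA were led in the ranking by dim transcripts. Of the 15 with the smallest p, 11 were not well above background on either Thoc5 siRNA array. Their bounds ran from at least 1.54-fold to at least 4.50-fold higher with Thoc2 siRNA, the latter for the keratin-associated Krtap4-2. Over all 617 genes not well above background on either Thoc5 siRNA array the median bound was 2.06-fold. Of these 617, 336 had a bound of at least 2-fold, so the smaller bounds given here are ordinary for such genes. The bound was at least 4.43-fold for the odorant receptor Olfr1256, at least 4.29-fold for Trem1, a receptor of myeloid cells, and at least 2.87-fold for both the channel gene Calhm4 and the transporter Slc22a20. It was at least 2.96-fold for 1810013D15Rik and at least 1.95-fold for the bombesin-like receptor Brs3. For the sperm anchoring protein Akap4 and for D430030G11Rik it was at least 1.74-fold and at least 1.54-fold. The remaining 4 were above background on Thoc5 siRNA replicate 2 alone of that pair, among them the synaptotagmin Syt6 at -2.56 and -2.21 against -5.80 and -5.60, the prion-like Prnd, with a difference of -1.91 ± 0.20, and the GTPase Gbp4, with one of -1.27 ± 0.14. The quantile-normalized difference of Gbp4 was -0.61.

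A set measured well above background on all 4 arrays was added after the values were seen. Dpys, which encodes dihydropyrimidinase of pyrimidine breakdown (probe at chr15:39781444-39781503), led it, with 2.10 and 1.90 for Thoc2 siRNA, 0.65 and 0.57 for Thoc5 siRNA and 2.39 and 2.53 for NT. Its difference of -1.39 ± 0.16 leaves 38.3% of the Thoc2 siRNA level, and both knockdowns lay below NT. Pakap, an anchoring protein of protein kinase A, was the brightest of the set, at 3.49 and 3.50 against 2.38 and 2.54, with NT at 3.23 and 3.28 and a difference of -1.04 ± 0.14, although further Pakap probes measured on all 4 arrays gave -0.45 and 0.07. Duoxa1, a maturation factor of dual oxidases, differed by -1.45 ± 0.18, and its Thoc2 siRNA levels of -2.11 and -2.24 lay within or near the NT levels of -2.43 and -2.15.

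In Msln and Tmprss5, of the same set, the Thoc2 siRNA arrays stood above NT. Msln, a surface protein of mesothelium, was at -0.80 and -0.28 with NT, at 0.52 and 0.59 with Thoc2 siRNA and at -0.76 and -0.80 with Thoc5 siRNA, a difference of -1.34 ± 0.22. Tmprss5, a membrane serine protease, was at -2.82 and -1.72, -0.34 and -0.51, and -2.45 and -2.61, a difference of -2.11 ± 0.39. Mitf, the master factor of melanocytes, differed by -1.10 ± 0.15 and the phospholipid flippase Atp11a by -1.09 ± 0.16, with NT between the knockdowns. Gdnf, a neurotrophic ligand, was at -1.76 and -2.60 against -4.09 and -3.97, a difference of -1.85 ± 0.32. The vesicle release factor Rims1 differed by -1.83 ± 0.28, with a second probe, above background on 3 of the 4 arrays, at 1.52. Of genes whose Thoc2 siRNA levels lay near or below NT, Col17a1, a hemidesmosome collagen, differed by -1.12 ± 0.15, Arhgdib by -1.07 ± 0.18 and the noncoding RNA Snhg11 by -1.08 ± 0.15. In all of these the groups did not overlap.

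The autosomes, chromosome X and genes of different size lay close together among genes well above background on all 6 arrays. Relative to their common median, the median difference of the autosomes and of chromosome X ran from -0.03 to 0.02. Chromosome Y, with 8 genes, lay at 0.11. In 8 equal bins of genomic gene span it ran from -0.03 in the longest genes, of at least 93569 bases, to 0.01.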

How the data were processed

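RNA of 6 samples was measured on 1-colour Agilent arrays, and 2 Thoc5 siRNA arrays were compared with 2 Thoc2 siRNA arrays. The deposited scanner files hold spot intensity after background subtraction within the array, per the file headers, which name Feature Extraction 9.5.3.1 and array build mm7; the submitters' processing notes name version 11.0. The deposited values of the authors for the whole series are log2 numbers that rank spots as the processed signal does (Spearman correlation 1), with a median of 5.82 on each array, and served as an alternative; how they were made is not given in the sources used here.

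Levels were computed as log2 of the processed intensity, less the array's 75th percentile of it. Control and outlier-flagged spots were left out, spots of a probe averaged, and probes kept if well above background on both arrays of either knockdown (27358 of 41174). The brightest kept probe stood for a gene. This gave 18678 genes, of which 222 lack a value on some array. Probe names came from the accession (22951 probes), a further accession (124), the symbol (6582) or a synonym (3077) in RefSeq (assembly GRCm38.p6, names and promoters only), and for 8440 from the files. The number of arrays limits the precision.

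Tests used limma 3.58.1 (lmFit, eBayes) in R 4.3.3 on all 6 arrays with 3 residual and 1.55 prior degrees of freedom, two-sided, with Benjamini-Hochberg adjustment over all genes and a threshold of 0.05. On simulated data, 10 draws of 18456 genes for this comparison, 0.129% of unchanged genes were called. The 20 alternatives changed scaling, background, filter, probe choice, variance model, slide or replicate terms, or left out arrays.

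The arrays compared and the 32 gene lists were chosen with earlier results of these data known. Named genes are the THO core, 12 fixed lineage factors, the 3 genes with the smallest p per list, and the 15 with the smallest p per direction among non-overlapping genes with a log2 difference of at least 1 that were above background on both arrays of the higher group; others were named after their values were seen. A few genes that this rule names are not reported here.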

Additional observations from a re-analysis of the deposited data

How the results depend on the processing

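The count of genes at an adjusted p under 0.05 was 0 in the main setting and in the 19 alternatives that have a test, with a smallest adjusted p of 0.0744 in the authors' deposited table, while counts at an unadjusted p under 0.05 ran from 52 (normexp background correction) to 2483 (all probes), with 1377 under the stricter filter, 985 without Thoc5 siRNA replicate 1 and 812 without both replicates 1. With the replicate number as a block the adjusted count was 0 and the unadjusted count 1506; same-numbered arrays of the knockdowns deviated together with a correlation of 0.255, and with NT of -0.207 and 0.169, over 2 pairs, so the numbers do not establish a pairing. Slide as a fixed block through NT gives values with no test. Of 2536 values of 135 named genes under the alternatives, each relative to the median of all genes, 2484 kept their direction, and 113 genes kept it throughout; the cause of the reversals was not tested. Reversed values were, without a filter on dim probes, Thoc3 0.020, Thoc6 0.011 and Aldh1l2 0.47; with normexp, Thoc3 0.091, Thoc6 0.054, Sox2 -0.081, Zfp42 -0.0045, Cdx2 0.00098 and Tkt 0.19; with slide as a random block, Thoc3 0.032; with slide fixed through NT, Thoc3 0.060, Thoc7 0.014, Pou5f1 0.23, Zfp42 -0.32, Sox1 0.57, Apoa1 1.37, Pax2 0.31, Map2 0.055, Cd44 1.41, Axin2 0.042 and Twist1 0.32. With the mean of probes they were Thoc3 0.0091, Thoc6 0.00044, Thoc7 0.95, Esrrb -0.016, Gata6 -0.35, Epha4 0.13, Skil 0.10 and Tkt 0.12, with outlier spots kept Thoc3 0.0044, with the stricter filter Zfp42 -0.055, with quantile normalization Zfp42 -0.071, Cdx2 0.0042 and T 0.015, with the authors' deposited table Zfp42 -0.086, Cdx2 0.053 and Aldh1l2 0.042, and without both replicates 1 Zfp42 -0.38, Cdx2 0.033 and Twist1 0.068. Leaving out 1 array gave ranges of -0.15 to 0.12 for Thoc3, -0.20 to 0.16 for Thoc6, -0.086 to 0.28 for Sox2, -0.016 to 0.30 for Esrrb, -0.26 to 0.24 for Zfp42, -0.038 to 1.88 for Gata6, -2.06 to 0.71 for T, -2.79 to 0.073 for Hnf4a and -0.22 to 0.040 for Tkt. Of 608 list medians under the alternatives 103 moved by at least 1 SD, taken over the list's medians per array within groups. Signal over background limits dim genes: of the lowest of 10 bins by level, 1.02% was well above background on all 4 arrays.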

Other observations

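Transcripts of the Y chromosome were looked at after the values were seen, because J1 is a male line. Ddx3y, a helicase gene, was at -4.79 and -4.43 with NT, not well above background on either Thoc2 siRNA array, and at -4.45 and -5.16 with Thoc5 siRNA, which makes it at least 2.21-fold higher with Thoc5 siRNA. The median bound over the 31 genes of that kind was 2.42-fold. Eif2s3y, a translation initiation factor gene, was at -1.02 and -1.21 with NT, at -2.21 and -2.05 with Thoc2 siRNA and at -1.22 and -1.47 with Thoc5 siRNA, a difference of 0.79 ± 0.17. Uba1y, a ubiquitin-activating enzyme gene, differed by -0.12 ± 0.46, with -3.41 and -3.31 against -2.85 and -4.12. The Thoc2 siRNA arrays were the lowest of the 6 for the former genes and not for the latter.

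Several genes that were far below NT in both knockdowns did not separate them. Lefty1, an inhibitor of Nodal, was at 4.61 and 4.64 with NT, at 2.26 and 2.16 with Thoc2 siRNA and at 2.03 and 2.10 with Thoc5 siRNA, a difference of -0.14 ± 0.14. Lefty2 differed by 0.07 ± 0.29 and Dppa3, a maternal factor that protects methylation, by 0.15 ± 0.17. These genes were chosen after their values were seen.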
